A study of Mus musculus with 18 samples.

Results

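The baseline transcriptome of electroporated retinal cells was described from the 6 control libraries of an 18-library series, chosen by their labels alone. The libraries were made from retinas of ICR mice, an outbred stock, which received plasmids by electroporation at postnatal day 0.5. In the scramble group (3 libraries, C1, C2 and C3) the plasmid expressed a scramble shRNA and was the control for knockdown. In the empty-vector group (3 libraries, v1, v2 and v3) it was the vector without an insert and was the control for overexpression. Every retina also received a plasmid that expresses EGFP, a green fluorescent protein, and was kept as an explant on a filter for 3 days before trypsin treatment and sorting of the EGFP-positive cells. No retina without plasmid was among the samples, and the sort keeps cells that took up and expressed the EGFP plasmid, not a cell type. Whether each library is a separate animal or culture is not stated in the labels, so the SD between 3 libraries may be technical. Both groups were deposited in separate tables that were quantified apart, so levels and ranks are set side by side and no test crosses the tables.

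Levels are given in parts per 1000000 of a column's sum (ppm). The deposited values are scaled by transcript length, so that levels of different genes can be compared on this scale. For a transcript with 1 kb of usable length, 1 ppm was worth about 12.8 to 20.5 reads in scramble libraries and 15.6 to 16.6 reads in empty-vector libraries. By the same estimate 3 reads in such a gene correspond to 0.146 to 0.234 ppm, and levels near or under that rest on a few reads. The SMART-Seq v4 cDNA carries no strand mark, and where a gene overlaps another or an antisense transcript its value may hold reads of both.

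In the newborn mouse retina, progenitors at the ventricular surface still divide and give rise mainly to rod photoreceptors, with bipolar cells, Müller glia and late amacrine cells, whereas ganglion cells, horizontal cells and cones are mostly born before birth. Plasmids injected into the subretinal space enter these progenitors and their newest progeny. A newly born rod switches on OTX2, CRX, NRL and NR2E3 first, then the proteins of the phototransduction cascade, and builds its light-sensing outer segment only during the following weeks.

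Empty-vector libraries resembled each other across genes more than scramble libraries did, and C1 and v1 stood apart in a small share of genes. Pearson's r of log2(ppm + 1) was 0.921 to 0.942 between scramble libraries and 0.971 to 0.980 between empty-vector libraries. Between libraries of different groups it was 0.937 to 0.959 (over 34385 genes, which are not independent of each other). Scramble libraries were thus no more alike than libraries of different groups. C3 was nearer to the empty-vector libraries (0.957 to 0.959) than to C1 (0.936) and C2 (0.942). The median coefficient of variation of genes between 10 and 100 ppm was 16.4% in scramble and 10.2% in empty-vector libraries, and between 100 and 1000 ppm it was 8.32% and 5.76%. Among 7343 genes whose scramble mean was 20 ppm or more, 52 were at least 2-fold above and 95 at least 2-fold below both other libraries in C1, together 2.002%, against 0.313% in C2 and 0.218% in C3. Among 7582 such genes in the empty-vector group the numbers were 49 and 22 in v1, or 0.936%, against 0.0396% in v2 and 0.0132% in v3.

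Several genes were high in C1 alone. Ctrc, which encodes a pancreatic protease, was at 101, 0 and 0.383 ppm in C1, C2 and C3 and was listed at 0 in every empty-vector library. Bhlhe41, which encodes a clock-associated repressor, was at 386, 5.99 and 4.58 ppm in scramble and 7.002, 4.14 and 3.35 ppm with the empty vector. Lamb3, a laminin subunit gene of basement membranes, had 48.2, 6.23 and 5.75 ppm in scramble and 7.65, 2.14 and 1.71 ppm with the empty vector. C1 was thus the only one of the 6 libraries above 20 ppm for each of these 3 genes, and without it the scramble means were 0.191, 5.28 and 5.99 ppm. Of the 5 named genes of at least 20 ppm that varied most between empty-vector libraries, 3 were Y-linked and all departed in v1. Eif2s3y was at 36.1, 35.4 and 26.02 ppm in scramble and 28.9, 118 and 119 ppm with the empty vector. Uty was at 20.2, 29.7 and 19.6 ppm in scramble and 13.5, 47.5 and 46.96 ppm with the empty vector and Ddx3y at 11.8, 17.03 and 12.3 ppm in scramble and 13.4, 44.2 and 42.7 ppm with the empty vector. All 3 were at least 2-fold lower in v1 than in v2 and v3. The labels give no sex for the mice. Fam210b, which encodes a mitochondrial protein, was also low in v1 (28.7, 98.4 and 87.7 ppm with the empty vector), and Rbm45, which encodes an RNA-binding protein, was high there (40.5, 10.2 and 12.2 ppm, a mean of 20.97 with v1 and 11.2 without it).

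Other departures of C1 lay between a gene and a near-identical copy. The mitochondrial gene mt-Co3 was at 13420 ppm in C1, against 4529 and 4426 ppm in C2 and C3, while its copy on chromosome 1 (24613189 to 24613971, GRCm38, RP23-8J15.4, named Gm28437 in GENCODE M21) was at 34.9, 8110 and 7480 ppm. All 31-base words of the copy's annotated transcript occur in mt-Co3, and the 2 summed to 13455, 12640 and 11907 ppm. In empty-vector libraries the sum was 11936, 11890 and 12123 ppm. The pair mt-Atp6 and RP23-8J15.3 was divided alike in C1, at 11150 and 30.8 ppm, but more evenly in the other libraries. In C2 and C3 mt-Atp6 was at 4649 and 5030 ppm and its copy at 5204 and 4781 ppm. Their sums were 11181, 9853 and 9811 ppm in scramble and 8069, 9403 and 9182 ppm with the empty vector. Rps27, a ribosomal protein gene, was at 1411, 248 and 189.8 ppm in scramble libraries and its retrotransposed copy Rps27rt at 68.4, 1299 and 1114 ppm, and 91.6% of the copy's 31-base words occur in Rps27. Their sum was 1479, 1546 and 1304 ppm in scramble and 1077, 1193 and 1226 ppm with the empty vector. Values of these single genes are therefore uncertain, and the sums are the steadier measure.

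**Figure D1:**
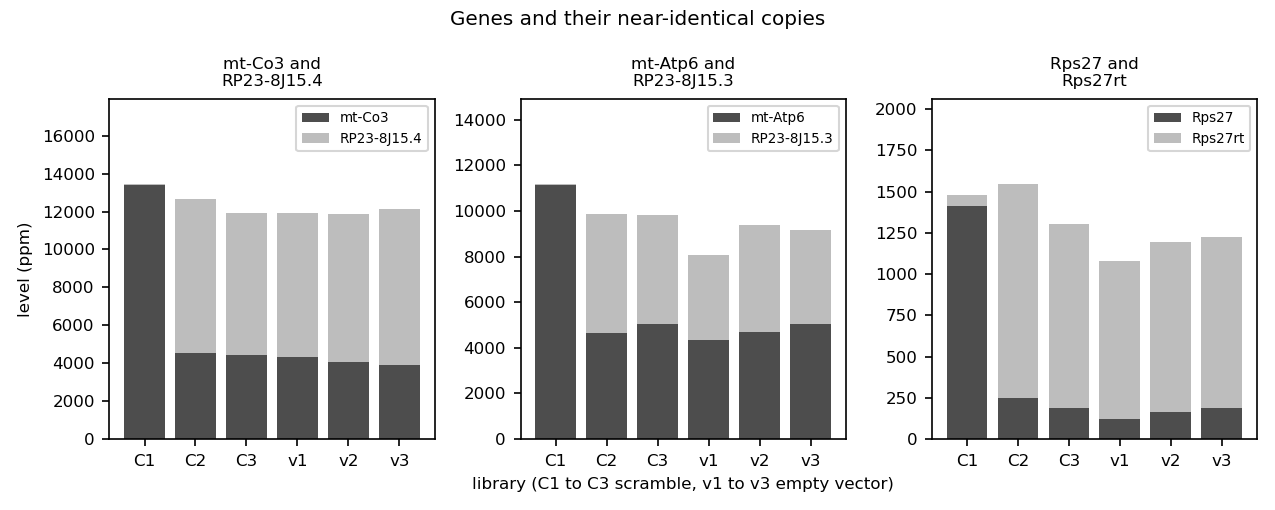
Levels in ppm (linear axis) of 3 genes (dark) stacked with their near-identical copies (light) in the 3 scramble libraries, C1 to C3, and the 3 empty-vector libraries, v1 to v3. In C1 nearly all of each sum was assigned to the first gene of the pair, for example 1411 of 1479 ppm for Rps27, whereas most of the Rps27 sum was assigned to the copy in the other 5 libraries.

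In scramble libraries 15614 genes reached 1 ppm in every library, in empty-vector libraries 15174, and 13773 did so in all 6. At 100 ppm the numbers were 1729, 1981 and 1630, and at 1000 ppm 80, 83 and 72. Between 759 and 813 genes made up 50% of the total in scramble libraries and between 871 and 912 in empty-vector libraries. Of the 20 highest nuclear protein-coding genes of each group, 17 were shared. The highest in scramble was Ckb, brain-type creatine kinase, at 7319 ± 273 ppm in scramble and 6134 ± 533 ppm with the empty vector (mean ± SD, n = 3 each, as throughout). The highest in the empty-vector group was Ldha, the lactate dehydrogenase subunit that favours lactate, at 6856 ± 352 ppm in scramble and 7109 ± 66.1 ppm with the empty vector. Tubulin (Tuba1a), ferritin (Ftl1 and Fth1), ubiquitin (Ubb) and histone H3.3 (H3f3a and H3f3b) genes were also among the shared 17. So were 3 genes known from retinal cells. Sag, which encodes rod arrestin, stood at place 20 in scramble and 23 in empty-vector libraries among protein-coding genes, mitochondrial, clone and predicted names included. Apoe, which encodes a lipoprotein that glia secrete, stood at places 11 and 9, and Fabp7, a fatty acid-binding protein gene of progenitors and immature glia, at 2245 ± 213 ppm in scramble and 2072 ± 16.8 ppm with the empty vector. Gngt2, the gamma subunit of cone transducin, was among the 20 only in scramble, with Cox4i1 and Ppia, and the actin gene Actb only in the empty-vector group, with Hmgn2 and Pkm.

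The labelled tissue was checked with markers of 3 classes that a newborn retina holds. Crx (ENSMUSG00000041578.15, chromosome 7, 15865947 to 15879968, minus strand, GRCm38), a homeobox gene of rods and cones, was at 533, 533 and 556 ppm in scramble and 809, 758 and 762 ppm with the empty vector. Nr2e3 (ENSMUSG00000032292.8, chromosome 9, 59942771 to 59960659, minus strand), a nuclear receptor that represses cone genes in rods, was at 1097, 1300.1 and 1143 ppm in scramble and 1542, 1463 and 1417 ppm with the empty vector. Both were at 533 ppm or more in all 6 libraries and higher in every empty-vector library than in any scramble library. Pax6 (ENSMUSG00000027168.21, chromosome 2, 105668900 to 105697364, plus strand), a homeobox gene of progenitors and amacrine cells, was at 126, 141 and 119 ppm in scramble and 82.9, 101 and 100.4 ppm with the empty vector. Calb2 (ENSMUSG00000003657.9, chromosome 8, 110137502 to 110168210, minus strand), which encodes calretinin of amacrine and ganglion cells, was at 96.9, 93.7 and 83.5 ppm in scramble and 47.3, 34.8 and 36.8 ppm with the empty vector. For both the scramble libraries lay above the empty-vector libraries with no overlap. Glul (ENSMUSG00000026473.15, chromosome 1, 153899944 to 153909723, plus strand), the glutamine synthetase of Müller glia, was at 138, 135 and 134 ppm in scramble and 137, 140.3 and 152 ppm with the empty vector, and the groups overlapped. In order of level, Nr2e3 was followed by Crx and then, in scramble, by Glul and Pax6, whose libraries overlapped, and by Calb2. In empty-vector libraries the order was Nr2e3, Crx, Glul, Pax6 and Calb2, with no overlap between neighbours.

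Summed over fixed lists of marker genes, photoreceptor genes had the highest levels of the retinal neuron classes. The fate factors of photoreceptors summed to 5827 ± 143 ppm in scramble and 7103 ± 413 ppm with the empty vector, and rod phototransduction genes to 7444 ± 168 ppm in scramble and 7290.3 ± 339.9 ppm with the empty vector. Müller glia genes summed to 5627 ± 321 ppm in scramble and 6095 ± 497 ppm with the empty vector, neurogenic precursor genes to 3372 ± 96.5 ppm in scramble and 3525 ± 109 ppm with the empty vector and progenitor genes to 1573 ± 78.4 ppm in scramble and 1631 ± 57.2 ppm with the empty vector. Amacrine genes were an order of magnitude below the fate factors, and retinal ganglion cell genes lower again at 105 ± 33.95 ppm in scramble and 73.9 ± 1.76 ppm with the empty vector. Such a sum depends on how many genes a list holds and on its highest member, and in sorted bulk cells fewer cells of a type and less RNA per cell cannot be told apart.

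**Figure D2:**
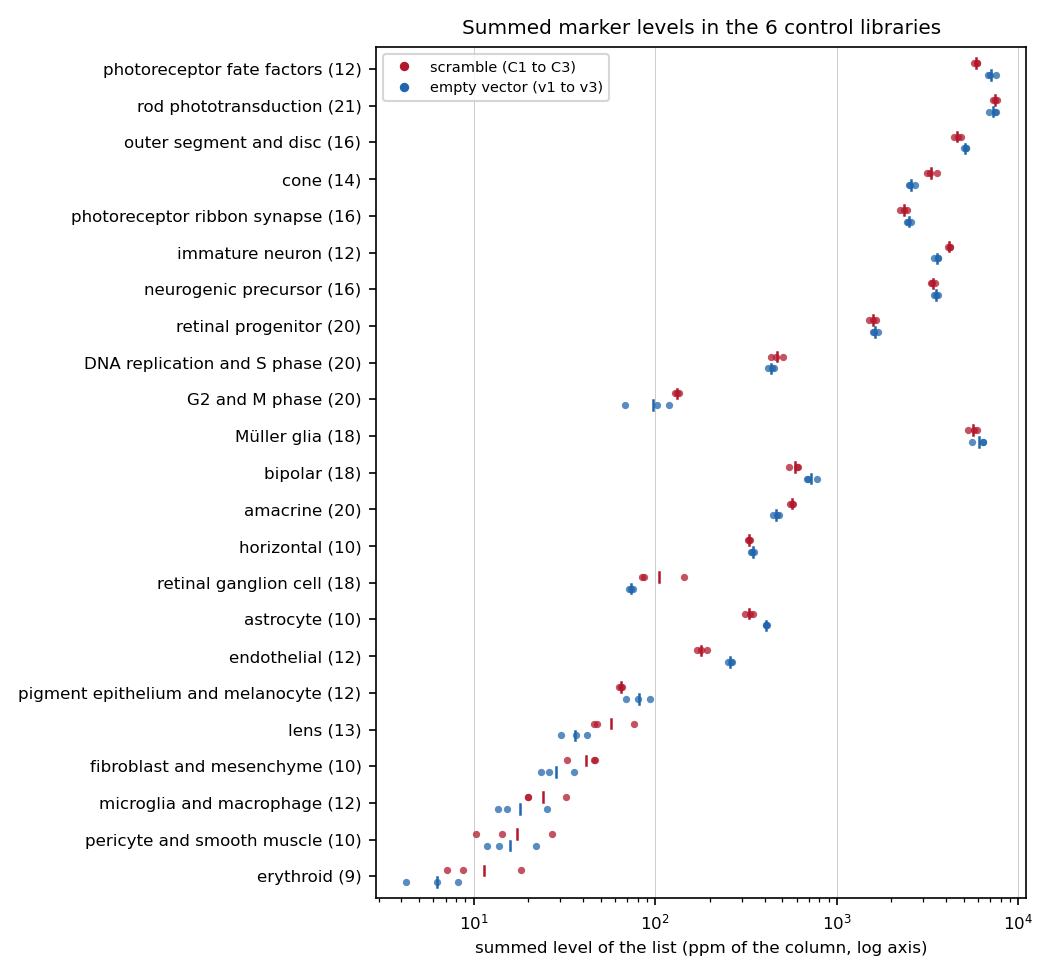
Summed level of each marker list in ppm (log axis), with the number of genes in brackets. Points are single libraries, scramble above empty vector in each row, and the short line is the mean of 3. Photoreceptor and Müller glia lists lie at the high end, amacrine and bipolar lists between 447 and 776 ppm, and lists of blood, vessel wall and connective tissue cells at the low end. C1 lies apart in the retinal ganglion cell and lens lists and v1 in that of G2 and M phase.

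All 12 photoreceptor fate factors were present in the tables and 11 were above 10 ppm in every library. Otx2, the homeobox gene that starts photoreceptor development, led the list at 1892, 1809 and 1737 ppm in scramble and 1946, 1797 and 1815 ppm with the empty vector. Neurod1, a basic helix-loop-helix gene that keeps photoreceptors on course, had 1084, 969 and 952 ppm in scramble and 1403, 1164 and 1043 ppm with the empty vector. Nrl (chromosome 14, 55518978 to 55524981, minus strand), the leucine zipper gene that makes a precursor a rod, was at 263, 269.9 and 225 ppm in scramble and 300.1, 304 and 278 ppm with the empty vector. Nr2e3 thus stood 4.17- to 5.07-fold above Nrl in scramble libraries and 4.81- to 5.14-fold in empty-vector libraries, and Crx 1.97- to 2.47-fold and 2.49- to 2.74-fold above it.

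Prdm1, which encodes the repressor that holds precursors in the photoreceptor rather than the bipolar fate, was at 196, 217 and 212 ppm in scramble and 326, 240.4 and 241 ppm with the empty vector. Rorb, a nuclear receptor gene upstream of Nrl, had 251 ± 19.4 ppm in scramble and 316 ± 6.30 ppm with the empty vector. Samd11 and Samd7, whose products work with Polycomb proteins to silence genes in rods, averaged 274 ± 1.32 and 105 ± 14.9 ppm in scramble against 433 ± 16.7 and 178 ± 12.2 ppm with the empty vector. Mef2d, a cofactor of CRX, was at 150.3 ± 13.6 ppm in scramble and 230.3 ± 5.96 ppm with the empty vector, and Casz1, a zinc finger gene, at 49.8 ± 6.26 ppm in scramble and 76.2 ± 4.61 ppm with the empty vector. The last member, Esrrb, a nuclear receptor gene of mature rods, was at 0, 2.18 and 0.892 ppm in scramble and 0.250, 1.19 and 0.0986 ppm with the empty vector, and no library was above 3 ppm.

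For 9 of the 12 fate factors every empty-vector library was above every scramble library, and for 0 the reverse. Of all 22567 genes whose mean was 1 ppm or more in either group, the groups did not overlap with the empty vector higher in 15.4% and with scramble higher in 14.2%. Among 4281 protein-coding genes averaging 50 ppm or more in either group, these shares were 36.9% and 11.5%, and the median log2 difference (scramble minus empty vector, of log2 of the mean ppm + 1) was -0.13. The difference for Crx on that scale was -0.52, and the groups differ in their table and their plasmid together, so that neither can be told from the other.

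The 21 genes of the rod phototransduction cascade were spread over more than 3 orders of magnitude. The same 4 genes led in every library. Sag was at 2676, 2785 and 2682 ppm in scramble and 2464, 2291 and 2297 ppm with the empty vector. Pdc, phosducin, which binds the beta and gamma subunits of transducin, had 1642, 1855 and 1614 ppm in scramble and 1321, 2267 and 2191 ppm with the empty vector, with v1 below the other 5 libraries. Pde6g, the inhibitory subunit of the phosphodiesterase, was at 1016 ± 144 ppm in scramble and 894 ± 48.8 ppm with the empty vector, and Gnb1, the beta subunit of rod transducin that many other cells share, at 737 ± 53.01 ppm in scramble and 854 ± 26.2 ppm with the empty vector.

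The next 6 genes lay between 94.97 and 301 ppm in every library. Gngt1, the gamma subunit of rod transducin, was at 301, 233 and 223 ppm in scramble and 216, 164 and 162 ppm with the empty vector, and Cngb1, the beta subunit of the cyclic nucleotide-gated channel, at 205, 249 and 217 ppm in scramble and 197, 179 and 174 ppm with the empty vector. Recoverin (Rcvrn), a calcium sensor that holds back the kinase GRK1, averaged 162 ± 5.91 ppm in scramble and 156 ± 20.2 ppm with the empty vector. Pde6b, a catalytic subunit of the phosphodiesterase, had 114, 94.97 and 123 ppm in scramble and 211, 176 and 183 ppm with the empty vector, and here the empty-vector libraries were the higher ones. Guca1a, an activator of guanylate cyclase, was at 107, 131 and 179 ppm in scramble and 115, 170.2 and 175 ppm with the empty vector. The remaining gene was Gnb5, the beta subunit that holds Rgs9, at 123 ± 6.55 ppm in scramble and 129 ± 11.4 ppm with the empty vector.

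Gnat1, the alpha subunit of rod transducin, was below those 6 genes at 28.6, 5.71 and 15.7 ppm in scramble and 8.80, 9.97 and 8.32 ppm with the empty vector, with C1 the highest library. Its scramble mean was 16.7 ppm, or 10.7 without C1. Sag exceeded it 93.6- to 487-fold in scramble and 230- to 280-fold in empty-vector libraries. Within transducin the subunit genes therefore stood in the order Gnb1, Gngt1, Gnat1 in every library.

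Among the low members were a channel subunit, a phosphodiesterase subunit, the guanylate cyclases and an exchanger. Cnga1, the other channel subunit, was at 10.3, 11.8 and 6.54 ppm in scramble and 18.3, 13.9 and 14.1 ppm with the empty vector, an order of magnitude below Cngb1. Pde6a, the partner of Pde6b, was at 3.85, 0.524 and 0.921 ppm in scramble and 0.869, 0.337 and 0.814 ppm with the empty vector. Pde6b exceeded it 29.5-, 181- and 134-fold in scramble and 243-, 523- and 225-fold in empty-vector libraries. The guanylate cyclases Gucy2e and Gucy2f averaged 4.95 and 0.792 ppm in scramble and 7.15 and 0.370 ppm with the empty vector. Slc24a1, the exchanger that removes calcium from the outer segment, was at 0.572, 1.29 and 0.576 ppm in scramble and 1.05, 0.921 and 0.972 ppm with the empty vector. Grk1, the kinase gene of the cascade, lay above them at 27.98 ± 4.998 ppm in scramble and 38.4 ± 5.64 ppm with the empty vector, as did Rgs9 (30.01 ± 4.84 ppm in scramble and 45.9 ± 1.31 ppm with the empty vector), which speeds transducin shut-off. Of the 21 members 18 were at 1 ppm or more in every scramble library and 18 in every empty-vector library. Of the 19 members with a mean of 1 ppm or more in either group, 3 were higher in every scramble library and 7 in every empty-vector library, where the shares of all such genes were 14.2% and 15.4%.

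**Figure D3:**
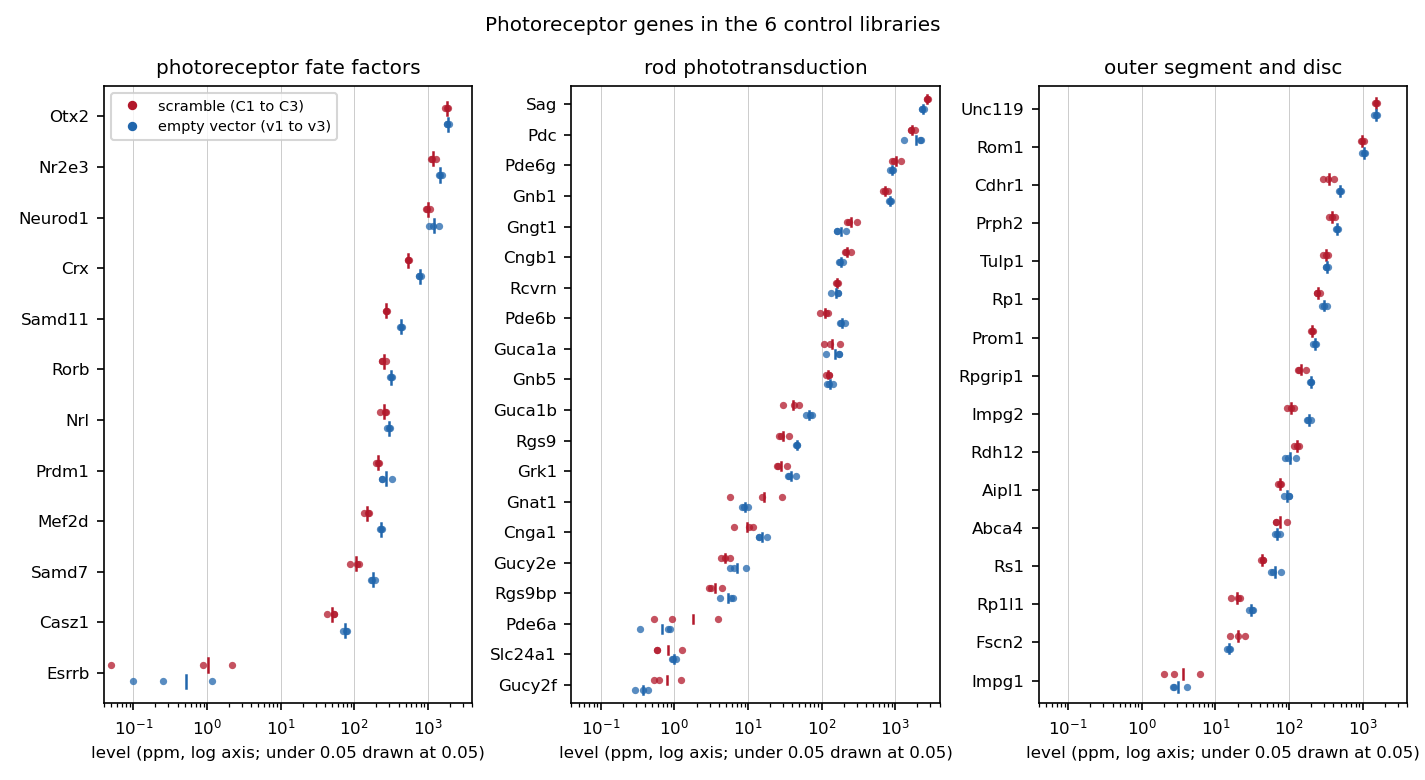
Levels in ppm (log axis) of listed photoreceptor fate factors, rod phototransduction genes and outer segment genes, ordered by the mean of both groups. Points are single libraries, scramble above empty vector, lines are means of 3, and values under 0.05 ppm are drawn at 0.05. Fate factors other than Esrrb lie at 42.6 ppm or more, whereas phototransduction genes reach from Sag at 2291 to 2785 ppm down to Gucy2f, Slc24a1 and Pde6a at 3.85 ppm or less.

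Promoters of these genes were set beside their levels because CRX and OTX2, both abundant here, bind the core TAATCC, which reads GGATTA on the other strand. In the 250 bases before the start of transcription (RefSeq, GRCm38.p6, first listed start of a gene), this core occurred on either strand in 8 of 14 rod phototransduction promoters (57.1%), 4 of 12 fate factor promoters (33.3%), 3 of 13 outer segment promoters and 2 of 9 cone promoters, against 5.77% of 15118 protein-coding promoters. In the other photoreceptor lists it was in 1 of 12 ribbon synapse promoters (8.33%) and 1 of 16 cilium promoters (6.25%). It was found in 4 of 15 bipolar, 2 of 12 Müller glia, 1 of 17 amacrine, 1 of 13 progenitor and 4 of 8 pigment epithelium and melanocyte promoters. Over all genes the share differed little by level, with 5.93% of promoters of genes at 100 ppm or more and 6.36% of those under 1 ppm. Shown here are 6 carriers from different steps of the program, an arrestin, a fate factor, a transducin subunit, a channel subunit, a cyclase activator and a cilium scaffold. They are printed in lower case, 5′ to 3′ on the strand of the gene, with the core in capitals. The first base of the core lies 87 bases before the start in Sag, 94 and 21 in Crx, 44 in Gngt1, 58 and 25 in Cngb1, 57 in Guca1a and 28 in Rpgrip1.
Sag, chr1:87803430-87803679, plus strand: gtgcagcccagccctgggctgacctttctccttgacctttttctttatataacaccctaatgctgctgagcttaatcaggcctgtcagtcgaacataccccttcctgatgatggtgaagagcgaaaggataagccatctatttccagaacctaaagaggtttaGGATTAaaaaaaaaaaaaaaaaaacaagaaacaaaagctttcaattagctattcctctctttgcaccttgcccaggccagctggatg
Crx, chr7:15879956-15880205, minus strand: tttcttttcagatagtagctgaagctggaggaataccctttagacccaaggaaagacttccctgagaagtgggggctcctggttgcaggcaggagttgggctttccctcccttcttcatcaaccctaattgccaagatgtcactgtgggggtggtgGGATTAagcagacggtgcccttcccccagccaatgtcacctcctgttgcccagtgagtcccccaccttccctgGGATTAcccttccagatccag
Gngt1, chr6:3993758-3994007, plus strand: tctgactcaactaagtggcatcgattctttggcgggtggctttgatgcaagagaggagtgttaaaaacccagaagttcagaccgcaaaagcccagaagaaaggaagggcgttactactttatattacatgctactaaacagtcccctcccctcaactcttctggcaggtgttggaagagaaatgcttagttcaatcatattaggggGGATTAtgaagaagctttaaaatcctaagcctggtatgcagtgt
Cngb1, chr8:95306586-95306835, minus strand: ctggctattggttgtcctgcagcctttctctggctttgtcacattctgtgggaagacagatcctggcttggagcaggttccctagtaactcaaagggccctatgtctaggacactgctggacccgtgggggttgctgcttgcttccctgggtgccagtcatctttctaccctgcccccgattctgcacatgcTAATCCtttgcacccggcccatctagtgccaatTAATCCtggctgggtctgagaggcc
Guca1a, chr17:47400607-47400856, minus strand: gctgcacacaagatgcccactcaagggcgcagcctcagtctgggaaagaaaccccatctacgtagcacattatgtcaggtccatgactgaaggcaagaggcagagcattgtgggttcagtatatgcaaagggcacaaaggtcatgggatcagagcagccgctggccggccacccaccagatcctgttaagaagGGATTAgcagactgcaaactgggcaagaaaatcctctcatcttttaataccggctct
Rpgrip1, chr14:52110653-52110902, plus strand: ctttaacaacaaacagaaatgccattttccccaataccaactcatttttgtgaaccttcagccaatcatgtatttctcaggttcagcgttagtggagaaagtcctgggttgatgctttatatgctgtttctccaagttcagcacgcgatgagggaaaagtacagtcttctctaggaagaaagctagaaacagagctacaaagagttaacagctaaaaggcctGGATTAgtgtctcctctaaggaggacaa

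Among the carriers were genes at both ends of the range. Besides Sag they included Gucy2e, at 4.95 ppm in scramble and 7.15 ppm with the empty vector, and Cnga1 and Gucy2f. A match is a stretch of letters and does not show that a factor is bound there. The TATAAA sequence was in 4 of 14 rod phototransduction promoters and in 11.7% of all.

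All 16 matched genes of the outer segment and its discs were above 1 ppm in every library. Unc119, which carries the acylated alpha subunit of transducin, was at 1476, 1519 and 1570.3 ppm in scramble and 1433, 1585 and 1539 ppm with the empty vector. The disc rim genes Rom1 and Prph2 averaged 987 ± 43.98 and 380.4 ± 34.5 ppm in scramble and 1038 ± 49.3 and 449 ± 16.9 ppm with the empty vector. Cdhr1 and Prom1, whose products sit where new discs form, averaged 345 and 206 ppm in scramble and 493 and 223 ppm with the empty vector.

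Rp1, which stabilises axonemal microtubules, was at 249.7 ± 13.9 ppm in scramble and 300.4 ± 24.4 ppm with the empty vector, and Tulp1, needed for protein transport to the outer segment, at 314 ± 25.3 ppm in scramble and 324 ± 10.8 ppm with the empty vector. Rpgrip1, a scaffold of the connecting cilium, was at 132, 167 and 136 ppm in scramble and 201, 189.9 and 198 ppm with the empty vector. Enzymes and late structural genes were lower. Abca4, the flippase that clears retinal from discs, was at 75.6 ± 15.7 ppm in scramble and 68.7 ± 5.22 ppm with the empty vector, and Fscn2 at 20.4 ± 4.77 ppm in scramble and 15.1 ± 0.848 ppm with the empty vector. Impg1, a proteoglycan gene of the matrix between photoreceptors, was at 6.23, 1.98 and 2.74 ppm in scramble and 4.08, 2.70 and 2.63 ppm with the empty vector, with a scramble mean of 3.65 ppm, or 2.36 without C1. For 8 of the 16 every empty-vector library was above every scramble library, and for 0 the reverse. Of all genes at 1 ppm or more 15.4% and 14.2% were so placed, and of protein-coding genes at 50 ppm or more 36.9% and 11.5%. The photoreceptor cilium list summed to 626 ± 22.1 ppm in scramble and 626 ± 46.3 ppm with the empty vector, with all 17 genes above 1 ppm in every library and Bbs4, a BBSome subunit, the highest at 71.7 ± 16.7 ppm in scramble and 90.3 ± 1.66 ppm with the empty vector. Prcd, another listed outer segment gene, was not matched and is not analysed here.

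The cone list summed to 3322 ± 219 ppm in scramble and 2569.7 ± 121 ppm with the empty vector, but Gngt2 alone made up 66.9% in scramble and 47.7% with the empty vector, and Gnb3, the cone beta subunit that ON bipolar cells share, was next. Gngt2 was at 2540.4, 2102 and 2027 ppm in scramble and 1362, 1134 and 1185 ppm with the empty vector, without overlap. Gnb3 had 788, 873 and 847 ppm in scramble and 928, 1017 and 997 ppm with the empty vector. Of the cone pigments, short-wavelength opsin (Opn1sw) was at 132, 131 and 154 ppm in scramble and 235, 164 and 162 ppm with the empty vector. Medium-wavelength opsin (Opn1mw) was at 0, 3.26 and 1.08 ppm in scramble and 4.40, 1.03 and 1.59 ppm with the empty vector.

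Other cone-restricted genes were low. Gnat2, the cone alpha subunit, was at 33.6, 59.8 and 32.7 ppm in scramble and 52.7, 56.8 and 52.6 ppm with the empty vector, above Gnat1 in every library by 1.18- to 10.5-fold in scramble and 5.69- to 6.33-fold in empty-vector libraries. Thrb, a thyroid hormone receptor gene of cone precursors, was at 18.3 ± 3.73 ppm in scramble and 18.3 ± 3.99 ppm with the empty vector, and Rxrg, another nuclear receptor gene of cones, at 16.1 ± 2.41 ppm in scramble and 31.1 ± 5.52 ppm with the empty vector. Arr3, cone arrestin, was at 9.73, 4.56 and 2.39 ppm in scramble and 3.99, 4.76 and 5.70 ppm with the empty vector, with a scramble mean of 5.56 ppm, or 3.47 without C1. Pde6h, the cone inhibitory subunit, was at 3.26, 1.98 and 0.631 ppm in scramble and 7.40, 17.6 and 19.1 ppm with the empty vector, so that its rod counterpart Pde6g stood at least 2 orders of magnitude above it in scramble libraries.

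The 16 genes of the photoreceptor ribbon synapse summed to 2337 ± 101 ppm in scramble and 2488 ± 75.2 ppm with the empty vector and all were above 1 ppm in every library. Cplx3, a complexin of ribbon synapses, was the highest at 875, 863 and 971 ppm in scramble and 753, 719 and 755 ppm with the empty vector. Slc17a7, the vesicular glutamate transporter of photoreceptors, was at 166, 173 and 189 ppm in scramble and 183, 179 and 184 ppm with the empty vector, and its paralog Slc17a6 of ganglion cells at 0.744, 1.44 and 2.08 ppm in scramble and 0.979, 1.25 and 0.651 ppm with the empty vector, a ratio of 91.1 to 224 in scramble and 143 to 283 in empty-vector libraries. Some genes of the release site were lower. Of the 16 listed genes 7 were at 100 ppm or more in every scramble library and 7 in every empty-vector library. Cacna1f, the calcium channel of the photoreceptor terminal, was at 5.30 ± 2.77 ppm in scramble and 8.32 ± 1.23 ppm with the empty vector, its regulator Cabp4 at 6.44 ± 1.93 ppm in scramble and 7.33 ± 2.64 ppm with the empty vector and the scaffold gene Bsn at 1.63 ± 0.461 ppm in scramble and 1.51 ± 0.389 ppm with the empty vector. Among the genes that face the bipolar cell, Egflam, which encodes pikachurin, averaged 175 ± 8.13 ppm in scramble and 223 ± 10.6 ppm with the empty vector and Elfn1 7.59 ± 1.81 ppm in scramble and 14.9 ± 3.54 ppm with the empty vector.

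Progenitor genes were all above 1 ppm in every library, but they were uneven. Rax, the eye field homeobox gene, which photoreceptor precursors also use, made up 39.2% of the sum in scramble and 35.02% with the empty vector at 617, 547 and 688 ppm in scramble and 611, 562 and 539.8 ppm with the empty vector. Hes5, a Notch effector gene, was at 175, 160.3 and 182 ppm in scramble and 178, 261 and 245 ppm with the empty vector. Sox2 and Sfrp2, which mark dividing progenitors and (for Sox2) glia, averaged 9.24 and 4.28 ppm in scramble and 13.4 and 6.03 ppm with the empty vector. Fgf15, another gene of dividing progenitors, was at 3.19, 1.64 and 7.03 ppm in scramble and 5.17, 3.11 and 3.68 ppm with the empty vector.

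Genes of postmitotic precursors summed to more than those of progenitors. Neurod4, a basic helix-loop-helix gene of precursors, was at 1428, 1432 and 1421 ppm in scramble and 1528, 1235 and 1207 ppm with the empty vector, and Hes6, which opposes Hes1, at 875, 879 and 959 ppm in scramble and 789, 936 and 919 ppm with the empty vector. Btg2, an antiproliferative gene, had 401 ± 6.36 ppm in scramble and 496 ± 39.3 ppm with the empty vector. Genes of the earlier neurogenic state were low, with Neurog2 at 13.96 ± 2.31 ppm in scramble and 12.7 ± 4.11 ppm with the empty vector and Atoh7, which ganglion cell genesis needs, at 8.39 ± 4.59 ppm in scramble and 12.8 ± 1.82 ppm with the empty vector. Insm1, a zinc finger gene of newborn neurons, was at 60.6, 63.7 and 76.7 ppm in scramble and 157, 159 and 138 ppm with the empty vector and had one of the 8 largest differences between the groups in that direction (log2 -1.16).

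Cell cycle genes were present at low levels. The 20 genes of G2 and M phase summed to 135, 129 and 131 ppm in scramble and 68.2, 119 and 103 ppm with the empty vector. The mean with the empty vector was 96.8 ppm, or 111 without v1. Mki67, the proliferation marker, was at 2.20, 4.57 and 2.16 ppm in scramble and 1.57, 1.10 and 3.65 ppm with the empty vector, and Top2a, topoisomerase II alpha, at 9.51, 9.90 and 10.1 ppm in scramble and 5.28, 6.43 and 7.29 ppm with the empty vector. Of these 20 genes 5 were higher in every scramble library and 0 the reverse, against 14.2% and 15.4% of all genes at 1 ppm or more. The 20 genes of DNA replication summed to 468 ± 36.05 ppm in scramble and 436 ± 15.9 ppm with the empty vector, with Mcm7, a subunit of the replicative helicase, the highest at 104 ± 10.6 ppm in scramble and 119 ± 3.58 ppm with the empty vector. Immature neuron genes were far above both cell cycle lists, at 4161 ± 57.4 ppm in scramble and 3561 ± 102 ppm with the empty vector. The leading member made up 48.7% of this sum in scramble and 40.4% with the empty vector. Without it the list summed to 2134 ppm in scramble and 2124 ppm with the empty vector. Stmn1, a tubulin-binding protein, led at 2044, 2032 and 2003 ppm in scramble and 1309.7, 1491 and 1512 ppm with the empty vector, Tubb3, neuronal beta tubulin, was at 274, 284 and 288 ppm in scramble and 159.7, 204 and 213 ppm with the empty vector, and Dcx, doublecortin, at 2.996 ± 1.22 ppm in scramble and 2.29 ± 1.04 ppm with the empty vector. Of the 12 immature neuron genes 6 were higher in every scramble library and 3 the reverse, against the same 14.2% and 15.4%, or 11.5% and 36.9% of protein-coding genes at 50 ppm or more.

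Of the Müller glia genes, Apoe made up 69.5% of the list's sum in scramble and 66.9% with the empty vector, at 3531, 3972 and 4227 ppm in scramble and 3773, 4218 and 4233 ppm with the empty vector. Without it the remaining 17 genes summed to 1717 ppm in scramble and 2020.4 ppm with the empty vector. Crym, a thyroid hormone-binding protein gene, was at 568, 516 and 549.6 ppm in scramble and 447, 623 and 673 ppm with the empty vector. Rlbp1, the retinal-binding protein CRALBP, had 246, 249.96 and 239 ppm in scramble and 233, 303 and 285 ppm with the empty vector, and Dkk3, a secreted Wnt modulator, 164, 197 and 175 ppm in scramble and 272, 335 and 331 ppm with the empty vector. For Dkk3 the groups did not overlap, and in both Crym and Rlbp1 v1 was the lowest of the 6 libraries.

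Several other genes of Müller glia were lower than Rlbp1 and Glul. Slc1a3, the glutamate transporter GLAST, was at 70.2 ± 4.72 ppm in scramble and 91.4 ± 2.13 ppm with the empty vector, Sox9, a glial transcription factor, at 24.9 ± 1.13 ppm in scramble and 34.04 ± 3.42 ppm with the empty vector and Kcnj10, the potassium channel Kir4.1, at 8.16 ± 0.565 ppm in scramble and 12.8 ± 2.35 ppm with the empty vector. Aqp4, the water channel of mature glia, was at 0.344, 0 and 1.11 ppm in scramble and 1.01, 0.189 and 0.162 ppm with the empty vector, and Hepacam, a glial adhesion molecule, at 0.306, 0 and 0.142 ppm in scramble and 0.144, 0.0396 and 0.148 ppm with the empty vector. Both were near or under the level of 3 reads in several libraries. Vimentin (Vim), an intermediate filament of progenitors and glia, averaged 57.5 ± 1.43 ppm in scramble and 69.7 ± 0.989 ppm with the empty vector and the reactive filament Gfap 2.75 ± 1.01 ppm in scramble and 1.77 ± 0.382 ppm with the empty vector. Of the 16 members with a mean of 1 ppm or more in either group, 7 were higher in every empty-vector library and 0 the reverse. The empty-vector share is 15.4% of all genes at that level and 36.9% of protein-coding genes at 50 ppm or more.

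**Figure D4:**
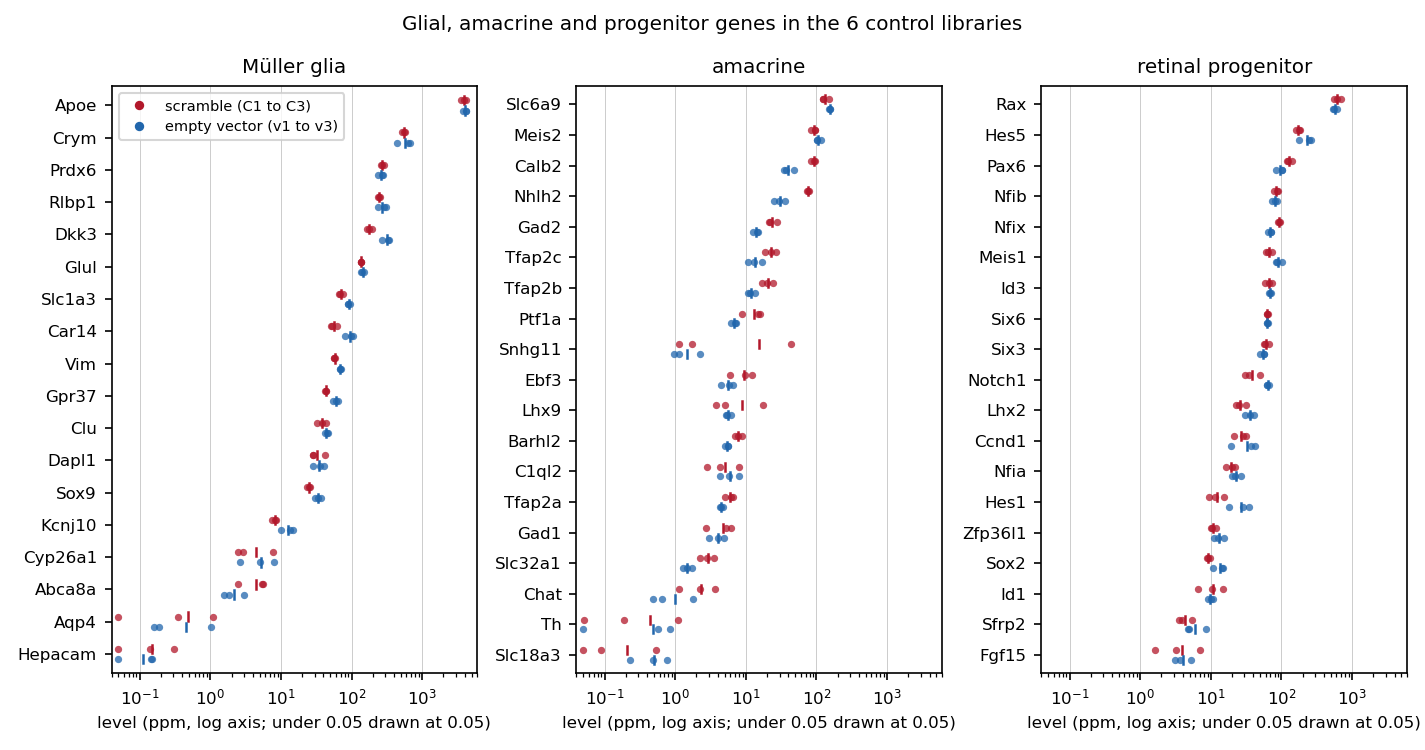
Levels in ppm (log axis) of listed Müller glia, amacrine and progenitor genes, ordered by the mean of both groups. Points are single libraries, scramble above empty vector, lines are means of 3, and values under 0.05 ppm are drawn at 0.05. Apoe stands at 3531 to 4233 ppm, Calb2 and Nhlh2 show the scramble libraries apart from the empty-vector libraries, and Snhg11 shows C1 apart from the other 5.

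The bipolar list summed to 586 ± 38.02 ppm in scramble and 721 ± 47.8 ppm with the empty vector, of which Pcp2, a G protein regulator of ON bipolar and Purkinje cells, made up 82.9% and 87.4%, at 444, 507 and 508 ppm in scramble and 672, 617 and 600.4 ppm with the empty vector. The other 17 were far lower. Prkca, protein kinase C alpha of rod bipolar cells, was at 6.74 ± 2.32 ppm in scramble and 8.09 ± 3.80 ppm with the empty vector, Cabp5 at 9.42 ± 0.781 ppm in scramble and 9.59 ± 1.14 ppm with the empty vector and Trpm1, the ON bipolar transduction channel, at 7.16 ± 2.63 ppm in scramble and 2.36 ± 0.626 ppm with the empty vector. Its receptor Grm6 was at 0.471, 0.562 and 0.214 ppm in scramble and 0.340, 0.185 and 0.316 ppm with the empty vector and Vsx1, a cone bipolar factor, at 0.290, 0.773 and 0.830 ppm in scramble and 0.0899, 0.138 and 0.0369 ppm with the empty vector, with no library above 1 ppm for either.

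Amacrine genes summed to 565 ± 10.4 ppm in scramble and 465 ± 17.7 ppm with the empty vector. The highest were Slc6a9, the glycine transporter GLYT1, at 133 ± 16.9 ppm in scramble and 154 ± 2.09 ppm with the empty vector, and Meis2 at 91.8 ± 6.20 ppm in scramble and 107 ± 9.41 ppm with the empty vector. Nhlh2, a basic helix-loop-helix gene, was at 73.7, 78.5 and 75.01 ppm in scramble and 36.4, 29.2 and 24.998 ppm with the empty vector, without overlap. The GABA-synthesising enzymes Gad2 and Gad1 averaged 23.4 ± 3.54 and 4.75 ± 1.79 ppm in scramble and 14.1 ± 1.24 and 3.98 ± 0.934 ppm with the empty vector. Tfap2b and Ptf1a, transcription factor genes of amacrine cells, were between those levels, whereas Meis2 and Nhlh2 were higher. Tfap2b was at 20.4 ± 3.85 ppm in scramble and 11.8 ± 1.43 ppm with the empty vector. Ptf1a, which directs precursors to the amacrine and horizontal fates, was at 13.1 ± 3.73 ppm in scramble and 6.83 ± 0.676 ppm with the empty vector. The starburst marker Chat was at 3.60, 2.28 and 1.15 ppm in scramble and 0.490, 0.650 and 1.79 ppm with the empty vector. Slc18a3, which marks the same cells, and the dopaminergic marker Th were under the level of Chat in the mean of each group. Snhg11 was at 43.4, 1.15 and 1.74 ppm in scramble and 2.24, 0.970 and 1.14 ppm with the empty vector, high in C1 alone, without which its scramble mean was 1.44 ppm. Of the 18 amacrine genes with a mean of 1 ppm or more in either group 9 were higher in every scramble library and 2, Meis2 among them, in every empty-vector library, where the shares of all such genes were 14.2% and 15.4%.

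In the horizontal cell list, Sept4, a septin gene that is not restricted to these cells, made up 66.8% and 74.8% of the sum, at 219 ± 8.15 ppm in scramble and 257 ± 10.5 ppm with the empty vector. The defining factor Onecut1 was at 1.35 ± 0.333 ppm in scramble and 1.76 ± 0.353 ppm with the empty vector. Lhx1 was at 0.463, 0 and 0.122 ppm in scramble and 0.387, 0.119 and 0.405 ppm with the empty vector. Calb1, calbindin, was at 2.33 ± 0.0848 ppm in scramble and 1.76 ± 0.643 ppm with the empty vector, whereas Prox1, which progenitors and amacrine cells also express, was at 33.1 ± 10.1 ppm in scramble and 27.8 ± 0.322 ppm with the empty vector. For ganglion cells, the defining factors Pou4f1, Pou4f2 and Pou4f3 were under 1 ppm in every library, and Sncg, gamma synuclein, was under 1 ppm too. Rbpms, which encodes a ganglion cell RNA-binding protein, was at 5.97, 1.25 and 3.12 ppm in scramble and 2.30, 2.94 and 3.35 ppm with the empty vector. Thy1, a surface glycoprotein of ganglion cells, was at 45.2, 0.521 and 2.40 ppm in scramble and 0.638, 1.10 and 1.46 ppm with the empty vector, with a scramble mean of 16.03 ppm, or 1.46 without C1. C1 alone was above 3 ppm, and the scramble sum of the list was 105 ppm with C1 and 85.6 without it.

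The defining genes of other cells that a dissected retina could bring along were low in all 6 libraries. Microglia and macrophage genes summed to 23.98 ± 7.08 ppm in scramble and 18.03 ± 6.35 ppm with the empty vector over 12 genes, and Csf1r and Cx3cr1, receptors of microglia, were under 1 ppm in every library. The endothelial sum of 179.6 ± 11.5 ppm in scramble and 259 ± 5.69 ppm with the empty vector came mostly from Slc2a1, the glucose transporter GLUT1 that photoreceptors also carry, and Kdr, a VEGF receptor that retinal progenitors also express, at 41.3 ± 1.93 ppm in scramble and 77.9 ± 7.95 ppm with the empty vector. The vessel-restricted genes Pecam1 and Cdh5 were low. Pecam1 was at 5.91, 2.53 and 3.31 ppm in scramble and 4.07, 1.37 and 1.99 ppm with the empty vector. Cdh5 was at 6.47, 0.188 and 0.919 ppm in scramble and 4.14, 0.456 and 0.0873 ppm with the empty vector. The mean of Cdh5 was 2.53 ppm in scramble, or 0.553 without C1, and 1.56 ppm with the empty vector, or 0.272 without v1. Hbb-bs, adult beta globin, was at 0, 7.73 and 0.685 ppm in scramble and 0, 0.330 and 1.44 ppm with the empty vector.

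The astrocyte sum of 329 ± 17.1 ppm in scramble and 409.6 ± 1.90 ppm with the empty vector came to 88.5% and 92.4% from Slc1a2, a glutamate transporter that photoreceptors and bipolar cells also carry, while Pax2, which marks optic nerve astrocytes, was under 1 ppm in every library. The pigment epithelium and melanocyte list was led by Dct, dopachrome tautomerase, at 39.0003 ± 6.68 ppm in scramble and 54.9 ± 14.2 ppm with the empty vector, and the visual cycle isomerase Rpe65 was at 2.20 ± 1.15 ppm in scramble and 1.06 ± 0.603 ppm with the empty vector. In the lens list Cryab, a crystallin that many tissues use as a chaperone, was at 57.02, 39.3 and 30.5 ppm in scramble and 19.4, 30.7 and 24.98 ppm with the empty vector, and Cryaa, which is close to lens-restricted, was under 1 ppm in every library. The lens sum of scramble was 56.95 ppm, or 47.1 without C1. Fibroblast genes summed to 41.7 ± 7.97 ppm in scramble and 28.4 ± 6.38 ppm with the empty vector and pericyte genes to 17.2 ± 8.75 ppm in scramble and 15.9 ± 5.37 ppm with the empty vector. Except for Sprr1a, an injury-induced gene of the gliosis list, no listed gene was at 0 in every library.

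The series concerns NMNAT enzymes, which make NAD, and the control libraries give the levels of their genes in control cells after 3 days in culture. Nmnat1 (chromosome 4, 149467572 to 149485202, minus strand), the nuclear enzyme, was at 19.1, 20.9 and 16.96 ppm in scramble and 22.6, 18.7 and 21.3 ppm with the empty vector. Nmnat2 (chromosome 1, 152954993 to 153119261, plus strand), the Golgi and axonal enzyme, was at 6.22, 0.624 and 2.03 ppm in scramble and 2.71, 1.14 and 1.80 ppm with the empty vector, with C1 the highest, and Nmnat3 (chromosome 9, 98287435 to 98420438, plus strand), the mitochondrial one, at 1.43, 0 and 1.96 ppm in scramble and 2.17, 1.71 and 2.11 ppm with the empty vector. Nmnat1 thus exceeded both paralogs in every library, and Nmnat2 was above Nmnat3 in every scramble library, though in C3 only at 2.03 against 1.96 ppm, and in v1 but not in v2 and v3. The NAD kinases, which phosphorylate NAD to NADP, were higher, with Nadk2 at 70.7 ± 8.13 ppm in scramble and 99.6 ± 1.31 ppm with the empty vector and Nadk at 49.6 ± 11.7 ppm in scramble and 67.8 ± 4.98 ppm with the empty vector. Nmrk1, a nicotinamide riboside kinase gene, was at 11.3 ± 2.64 ppm in scramble and 9.73 ± 0.927 ppm with the empty vector, and Naprt, which uses nicotinic acid, at 1.27 ± 1.10 ppm in scramble and 1.57 ± 0.870 ppm with the empty vector. Nampt was not matched and is not analysed here.

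Glycolytic genes summed to 13510.5 ± 641 ppm in scramble and 13526 ± 239 ppm with the empty vector, 1.351% and 1.353% of the total, of which Ldha made up 50.7% and 52.6%. Ldha exceeded Ldhb 21.9- to 24.4-fold in scramble and 25.7- to 27.1-fold in empty-vector libraries. Pkm, pyruvate kinase, was at 1886 ± 125 ppm in scramble and 1942 ± 169.9 ppm with the empty vector, and Aldoa, an aldolase, exceeded its brain paralog Aldoc 23.1- to 24.6-fold and 17.1- to 19.5-fold. Of the hexokinases, which start glycolysis, Hk1 was at 35.3, 28.6 and 54.8 ppm in scramble and 51.5, 38.1 and 44.99 ppm with the empty vector and Hk2, the isoform of mature photoreceptors, at 4.79, 2.28 and 1.84 ppm in scramble and 1.26, 1.08 and 0.990 ppm with the empty vector. Hk1 was above Hk2 in every library.

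Across 34385 genes the mean levels of the groups had a Spearman rank correlation of 0.914, or 0.957 over the 17480 genes with at least 1 ppm in both. On the scale of mean ppm + 1, 93.4% of those 17480 genes lay within 2-fold. Over all genes the share was 91.5%, but a gene under 1 ppm in both groups is always within 2-fold on that scale. The largest differences among protein-coding genes of at least 50 ppm, with no overlap and named by a fixed rule, included neuronal genes in both directions. Among the 8 higher in scramble were Rps27 (with the copy described above), Reg2, a secreted lectin gene (322, 134 and 167 ppm in scramble and 67.7, 48.9 and 55.99 ppm with the empty vector), Gm21897, Klhl35, Nhlh2, Olfr46 and Calb2 (log2 difference 1.18). Higher with the empty vector were Cwc22, a splicing factor gene (29.7, 22.97 and 25.3 ppm in scramble and 151, 150.4 and 149.96 ppm with the empty vector, log2 difference -2.49), Gm10401, Cnnm3, Brsk2, Arhgap32, Insm1, Tub and Rmnd5a (-1.07). Reg2 was highest in C1, and for Cwc22 each group lay within a narrow range.

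**Figure D5:**
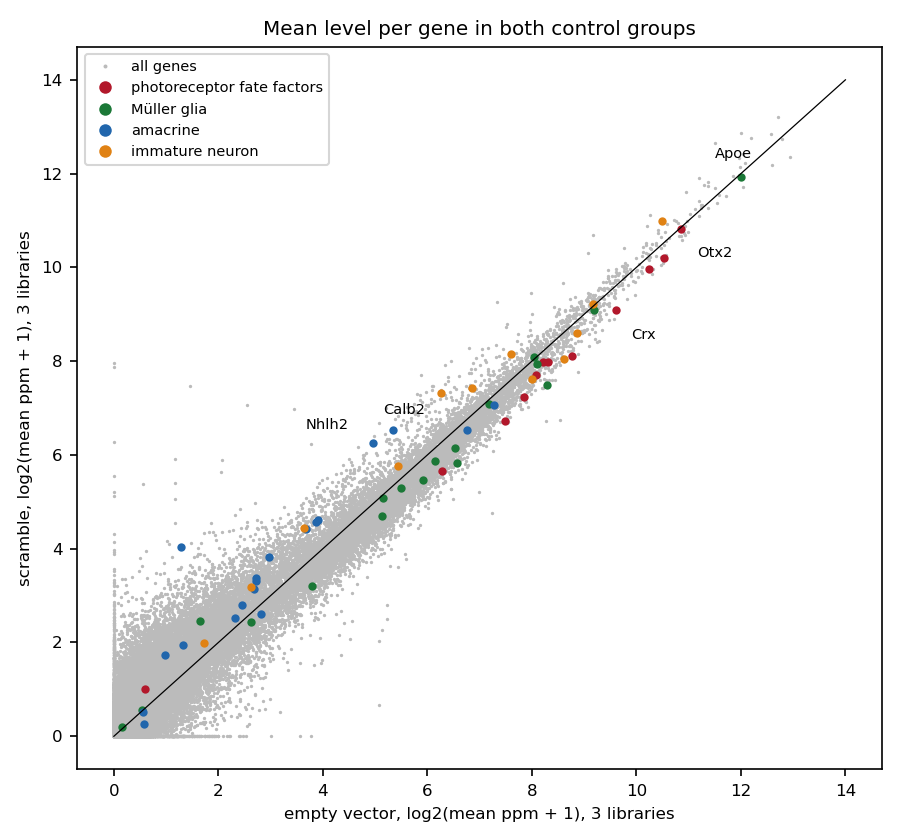
Mean level of each gene as log2(mean ppm + 1), the scramble group on the vertical and the empty-vector group on the horizontal axis, 3 libraries each, with all genes in grey, 4 lists in colour and the line of equal levels. Of the 12 photoreceptor fate factors 9, Crx among them, lie below the line, toward the empty vector, without overlap of libraries. Otx2 lies close to the line. The amacrine genes Calb2 and Nhlh2 lie above it, toward scramble, whereas the amacrine genes Slc6a9 and Meis2 lie below it. Protein-coding genes of 50 ppm or more in either group lie below it too in the median (log2 difference -0.13).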

How the data were processed

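Samples were 3 scramble and 3 empty-vector libraries among 18 of a series in 6 groups of 3. Per the submitters' processing notes, which state no roles, the tools were Salmon 0.11.3 and sleuth 0.30.0 and the build was GRCm38.p6. The deposited expression signal is called TPM by the authors, but the control columns summed to between 17.6 and 29.6 times 1000000, so every value was divided by its column's sum and multiplied by 1000000 (ppm), the only step that changes a value. The unit before that and the number of reads per library were not given in these sources. The columns C1 to C3 name the scramble group but not a single sample, and all columns of these groups were used.

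Relative depth came from steps of low values in 6765 genes with 1 annotated transcript of at least 800 bases (GENCODE M21). With a tolerance of 0.1, between 79.0% and 86.2% of low values lay near a whole multiple of 1 read, against 20% by the width of the tolerance, and depth relative to the median library of a group was 0.757 to 1.18. Other genes have no single length, so no count test was run. The step search and the measure of spread were tested on simulated data with known answers.

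Descriptions rest on 30 gene lists with 447 members, of which 444 were matched. The members, lists and rules were chosen with earlier results of these data known. Named were the 5 markers, up to 6 members per list by level and others for their known role, the 20 highest nuclear protein-coding genes per group, the 10 most variable per group among genes of at least 20 ppm and the 8 largest differences per direction, with clone and predicted names left out of the highest and the most variable. Some genes named for their role stand below the first 6 of their list. A few genes that these rules name are not reported here, though list sums and counts hold them. Spread was the SD of log2(ppm + 1). No test was run. Both tables hold 27 symbols that differ because a spreadsheet turned them into dates, so names were taken from the knockdown table by gene ID, and of 34396 IDs 99.9% were in GENCODE M21. Python 3.11.15, pandas 2.3.3 and matplotlib 3.10.9 were used. Alternatives were the detection threshold, pseudocount, filter, scaling, median, the leading member of a list and each library left out.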

Additional observations from a re-analysis of the deposited data

How the results depend on the processing

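No paired analysis was possible because no result comes from a test and the columns C1 to C3 name no single sample. Scaling to protein-coding genes only put the sums of fate factors, rod phototransduction, progenitor, Müller glia and amacrine genes at 6339, 8098, 1712, 6124 and 614 ppm in scramble, and the first 3 and the last at 7621, 7820, 1750 and 499 ppm with the empty vector. Without mt- and ribosomal protein genes in the column sum they were 6295, 8041, 1699, 6074 and 610.0 ppm, and 7560, 7761, 1736 and 495 ppm. These moves exceeded 1 SD because the total shrinks, whereas that of Müller glia with the empty vector did not. Without its leading member each list was lower by construction, at 4015, 4730.3, 956, 1717 and 432 ppm in scramble and 5250.4, 4939, 1059.9, 2020.4 and 311 ppm with the empty vector. Median-of-ratios scaling moved none of the 60 sums of all 30 lists by over 1 SD. The median of 3 libraries, or leaving out 1, cannot move a mean by that much, and leaving out 1 changed none of the 60 sums by over 1.5 times.

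Spearman's rho between the groups was 0.957 over genes of at least 1 ppm in both, 0.966 over protein-coding genes, and 0.889 to 0.909 with 1 library left out. The median SD of log2(ppm + 1) was 0.362 in scramble, or 0.230 with a pseudocount of 5 ppm, and 0.205 with the empty vector, or between 0.117 without v1 and 0.190 without v3. The counts of genes at 1 ppm or more stayed within 1.5 times under every alternative run. Leaving out 1 library moved the mean of 5 of 223 listed genes of 10 ppm or more by over 1.5 times in scramble (Thy1, Gnat1, Snhg11 and Cdc45 without C1, and Vtn without C2) and of 0 of 219 with the empty vector. At 1 to 10 ppm it moved 35 of 149 and 12 of 138 and under 1 ppm 46 of 69 and 30 of 84. Of genes named for their spread or their difference, Bhlhe41, Ctrc, Lamb3 and Rps27 (219 ppm) moved so without C1 and Rbm45 without v1, and of the copies mt-Co3 did, at 4478 ppm without C1. Depth limits values under about 0.2 ppm, where a gene of 1 kb has about 3 reads.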

Other observations

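Stress and activity genes, which dissociation and sorting can touch, were measured in the same libraries. Immediate early genes summed to 724 ± 22.95 ppm in scramble and 809 ± 14.7 ppm with the empty vector. Ier2 led at 233, 248 and 269 ppm in scramble and 172, 179 and 176 ppm with the empty vector, higher in every scramble library, whereas Egr1, a transcription factor gene of recent activity, was at 42.02, 34.5 and 31.3 ppm in scramble and 62.97, 79.7 and 80.3 ppm with the empty vector and Jun at 78.3, 74.6 and 82.1 ppm in scramble and 104, 118 and 111 ppm with the empty vector, both higher in every empty-vector library. Fos was at 35.9, 54.02 and 39.1 ppm in scramble and 88.3, 48.5 and 48.4 ppm with the empty vector, highest in v1, and the groups overlapped. Npas4, which responds to neuronal calcium entry, was under 0.1 ppm in every library, and Arc was at 0, 1.68 and 0.0672 ppm in scramble and 0.0228, 0.700 and 0.702 ppm with the empty vector.

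Among p53 targets, which summed to 453 ± 28.7 ppm in scramble and 506 ± 14.7 ppm with the empty vector, the apoptosis gene Bax was at 236 ± 1.06 ppm in scramble and 206 ± 3.65 ppm with the empty vector and the cell cycle inhibitor gene Cdkn1a at 28.8, 23.6 and 15.99 ppm in scramble and 31.9, 34.2 and 26.7 ppm with the empty vector, while the apoptosis gene Pmaip1 was under 1 ppm in every library. Genes of the unfolded protein and integrated stress responses summed to 2106 ± 101 ppm in scramble and 2126 ± 87.99 ppm with the empty vector, with the chaperone gene Calr at 943 ± 68.9 ppm in scramble and 811 ± 16.9 ppm with the empty vector, the transcription factor gene Atf4 at 253 ± 24.4 ppm in scramble and 288 ± 14.8 ppm with the empty vector and the late stress genes Chac1 and Trib3 at 4.56 and 4.36 ppm in scramble and 3.27 and 2.36 ppm with the empty vector. Injury genes of glia were low, with Socs3 at 3.81 ± 1.97 ppm in scramble and 6.68 ± 1.34 ppm with the empty vector, Lcn2 at 0.730, 2.77 and 2.47 ppm in scramble and 1.68, 0.420 and 0.330 ppm with the empty vector and Edn2, which stressed photoreceptors release, under 1 ppm in every library. Stat3 made up 72.2% and 71.4% of that list's sum of 81.04 ± 10.2 ppm in scramble and 81.5 ± 12.2 ppm with the empty vector.

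Exact zeros occurred in expressed genes. In the scramble group 20 genes were listed at 0 in 1 library while both others held at least 20 ppm, and in the empty-vector group 3 were.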
